A study of Mus musculus with 20 samples.

Results

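The left atrium (LA) was compared with the left ventricle (LV) of the mouse heart by gene expression microarray, on 7 of the 20 arrays of the series. These were the 4 LA arrays and LV replicates 1, 2 and 3. LV replicate 4 was left out because it stood apart from every other array. The study's own tests also used fewer LV arrays than were deposited, and its methods do not say which. All animals were male C57/BL6 mice aged 5 to 10 weeks with no genetic change or treatment, and the series also held the right atrium (RA), the right ventricle (RV) and the sinoatrial node region (SA), with 4 arrays each. The LA piece was taken next to the pulmonary vein, and a block of LV wall was cut into 3 pieces that served as samples. The labels do not say which pieces came from the same heart, so the p-values measure the spread between these arrays, which may be partly technical. The numbers in the sample titles are 1 to 4 for LA and RA and 2, 7, 8 and 9 for LV and RV, so only 2 occurs in both LA and LV. If these numbers mark sets of dissections, the chamber and the set cannot be told apart in the other arrays.

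Atrial and ventricular muscle cells build their sarcomeres from different members of the same protein families. The atria hold their own essential and regulatory myosin light chains, secrete natriuretic peptides, and lie under dense vagal control through muscarinic receptors and their potassium channel. The ventricles carry the pressure load, rely heavily on the oxidation of fatty acids, and express Iroquois transcription factors that help to keep the ventricular programme on and the atrial programme off.

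Each deposited value was a z score within its array, with a mean of 0 and an SD of 1 over the probes of that array. It has no true zero point, so differences are given in z units and not as fold changes, and a gene with a value above 0 was brighter than the average probe. A gene was tested when it lay above 0 on at least 1 of the 7 arrays, which left 7183 of 16593 measured genes. Of these, 655 lay above 0 in LA only and 211 in LV only, and such genes entered through the chamber in which they were high. With no filter, 1751 of 16593 genes were higher in LA (10.6%) and 1435 lower (8.65%), 3186 in all (19.2%). LA and LV differed in 2810 of the 7183 genes at an adjusted p of 0.05 (limma, 39.1% of the genes tested). Of these, 1610 were higher in LA (22.4%) and 1200 were lower (16.7%). The difference exceeded 1 z unit in 167 of the called genes, 124 of them higher and 43 lower. The LA and LV arrays did not overlap in 3272 genes (45.6%): all 4 LA arrays lay above all 3 LV arrays in 1886 (26.3%) and below them in 1386 (19.3%). The median difference over all genes tested was 0.041, with an SD of 0.398 across genes. In dissected tissue, fewer cells of a type and less RNA per cell cannot be told apart.

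The 4 LA arrays were alike, with Spearman's rho between 0.976 and 0.982 over the genes tested, and LV replicates 1 and 2 reached 0.98. LV replicate 3 reached only 0.933 and 0.939 with the other LV arrays, and a scattered set of its values was low. On the arrays other than LV replicates 3 and 4, no named probe lay below -1.07, whereas 315 of 23978 named probes did so on LV replicate 3. Of the genes tested, 129 (1.8%) were affected, and 118 of them had a mean above 0 on LV replicates 1 and 2, up to 3.66. Without these genes, LV replicate 3 correlated with the other LV arrays at 0.971 and 0.978. The set held abundant genes: Acta1, skeletal alpha actin, read 3.78, 3.38 and -1.31 on the LV arrays, and Dcn, the matrix proteoglycan decorin, read 3.71, 3.61 and -1.09. These genes, like Gsn (gelsolin), were chosen as examples after their values were seen. With all 7 arrays, Acta1 differed between LA and LV by -2.34 ± 1.03 (SE, adjusted p = 0.103). Without LV replicate 3 the difference was -3.97 (adjusted p = 1.1e-07), the largest shift of any gene named here. Only 9 of the 129 genes were called with all 7 arrays, all higher in LA, against 45 without LV replicate 3, of which 19 were lower. Leaving out that array altogether gave 2482 calls among 7146 genes (34.7%), 1431 higher (20%) and 1051 lower (14.7%), and 2306 of the 2810 calls (82.1%) were made again with the same sign. Setting only its low values to missing gave 3005 calls (41.8%), 1738 higher (24.2%) and 1267 lower (17.6%), with 2793 of the 2810 among them. What set these values so low was not tested.

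**Figure D1:**
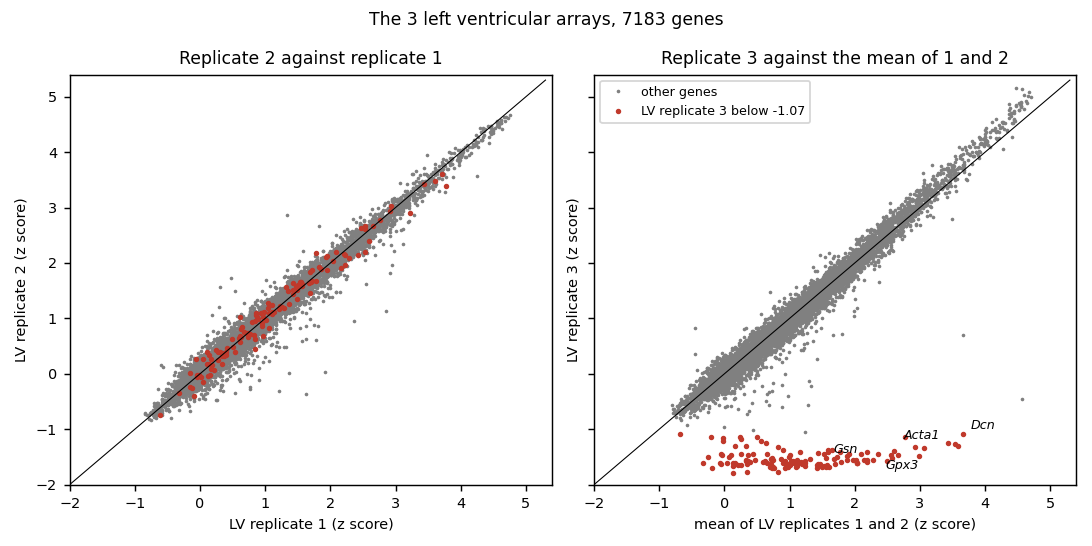
Values of 7183 genes on the LV arrays: replicate 2 against replicate 1 (left) and replicate 3 against the mean of replicates 1 and 2 (right), both axes in z scores, with the line of equality. The 129 genes in red lie below -1.07 on replicate 3 and near the line between replicates 1 and 2.

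LV replicate 4 correlated with the 7 arrays at 0.324 to 0.338 over the genes tested and at -0.058 to 0.012 over all named probes. With it kept, 47 genes were called higher in LA and 1 lower. Some of the remaining arrays also held transcripts typical of the neighbouring chamber. LV replicate 1 read 1.21 for Mybphl, 1.63 for Sln and 1.91 for Myl7, all atrial muscle genes, where LV replicates 2 and 3 read -0.50 to 0.03. RV replicates 2 and 3 were likewise above RV replicates 1 and 4 in these genes. RV replicate 2 carries the title of a right atrial sample, whereas its other labels name the right ventricle, and its Myl2 value of 4.34 lay within the range of the other RV arrays and above every RA array. LA replicates 1 and 2 read 1.57 and 2.03 for Myl2, the ventricular light chain, against 0.09 and 0.06 on LA replicates 3 and 4. Myl3, a second ventricular light chain, was not raised on those arrays. Without LV replicate 1 and LA replicates 1 and 2, a fit chosen after the values were seen, 2 arrays a group remained and 1452 of 6975 genes were called (20.8%), 818 higher in LA (11.7%) and 634 lower (9.09%). In that fit 1381 of the 2810 calls (49.1%) were made again with the same sign. The part of tissue carried over at dissection in the calls was not tested.

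The difference between LA and LV also moved with the level of the gene, and this touches every list of abundant genes below. The highest value on an array was 3.74 on LA replicate 1, 4.39 to 4.53 on the other LA arrays and 4.67 to 5.15 on the LV arrays. Among 815 genes with a mean level up to 0, the median difference was 0.146, with 31.3% called higher and 10.7% lower. Among 295 genes above 3, the median was -0.336, with 3.39% called higher and 53.2% lower. The same trend was present in the right heart, where the medians of RA minus RV were 0.078 and -0.22 in these level classes. Quantile normalization gives every array the same distribution of values, and afterwards the medians were 0.055 and -0.020. It called 2913 genes (40.6%), 1407 higher in LA (19.6%) and 1506 lower (21%), and 2301 of the 2810 calls (81.9%) were made again with the same sign. Counts of the lists after quantile normalization are given where they differ from those of the deposited values. Which of the scalings is nearer to the RNA content of the tissue was not tested.

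**Figure D2:**
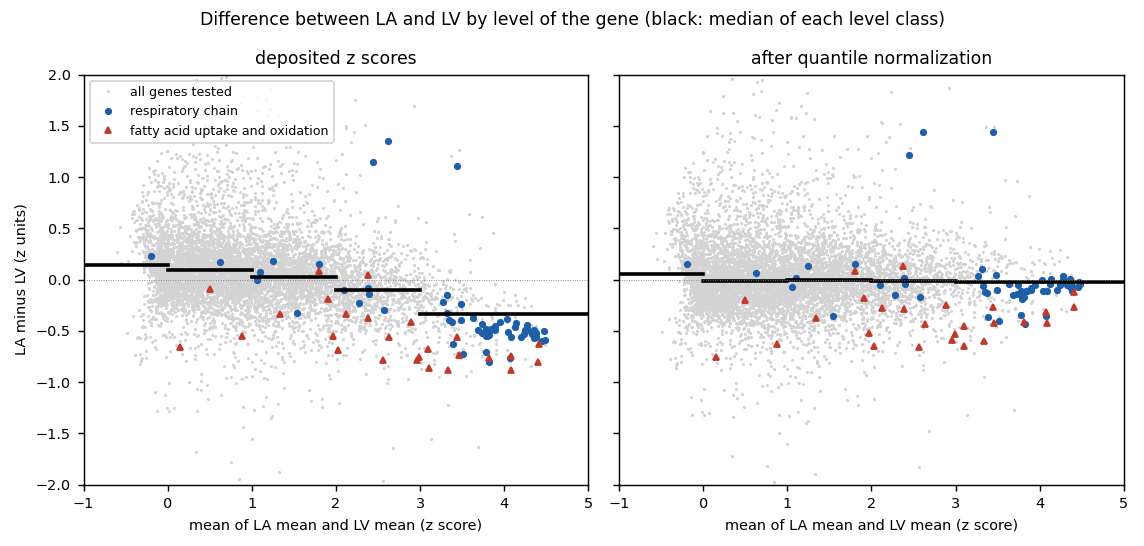
LA minus LV in z units against the mean level of the gene, with deposited z scores (left) and after quantile normalization (right). Grey points are the genes tested, blue points respiratory chain subunits, red triangles genes of fatty acid uptake and oxidation, and black bars the medians of 5 level classes. The most abundant class has its median at -0.336 on the left and at -0.020 on the right. Points beyond 2 z units are not drawn.

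Muscle proteins were among the largest differences in both directions. Mybphl, an atrial relative of the myosin binding proteins, read 3.65, 4.37, 4.29 and 4.40 on the LA arrays and 1.21, -0.31 and -0.31 on the LV arrays. The difference of 3.98 ± 0.36 (SE, adjusted p = 6.92e-05) was the largest of all genes whose groups did not overlap. Sln encodes sarcolipin, which restrains the calcium pump of the sarcoplasmic reticulum. It read 3.42, 4.26, 4.14 and 4.34 on the LA arrays and 1.63, -0.37 and -0.50 on the LV arrays, a difference of 3.79 ± 0.47 (SE, adjusted p = 0.000398). Myl7, the atrial regulatory light chain of myosin, read 3.68, 4.48, 4.30 and 4.35 on the LA arrays and 1.91, 0.03 and -0.40 on the LV arrays and differed by 3.69 ± 0.48 (SE, adjusted p = 0.000457). Myl4, the atrial essential light chain, read 3.44, 4.22, 4.07 and 4.28 on the LA arrays and 2.86, 1.13 and 1.05 on the LV arrays and differed by 2.32 ± 0.41 (SE, adjusted p = 0.00243). In all 4 genes every LA array lay above every LV array, with LV replicate 1 the nearest and LA replicate 1 the lowest of the atrial arrays. Non-overlap was a condition of the rule that picked the largest differences, these 4 genes among them. Without LV replicate 1 and LA replicates 1 and 2, the differences were 4.66 for Mybphl, 4.68 for Sln, 4.51 for Myl7 and 3.08 for Myl4, all still called.

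Ventricular light chains showed the mirror image. Myl2, the ventricular regulatory light chain, read 1.57, 2.03, 0.09 and 0.06 on the LA arrays and 4.47, 4.47 and 5.15 on the LV arrays, a difference of -3.76 ± 0.47 (SE, adjusted p = 0.000415). It was the largest fall in LA among the genes tested whose groups did not overlap. Myl3, the ventricular essential light chain, read 2.77, 3.0, 2.98 and 2.75 on the LA arrays and 4.45, 4.36 and 4.71 on the LV arrays and differed by -1.63 ± 0.10 (SE, adjusted p = 9.44e-06). The Myl3 transcript therefore stood well above the average probe in LA as well, while Myl2 read close to 0 on LA replicates 3 and 4. Without LV replicate 1 and LA replicates 1 and 2, Myl2 differed by -4.74 (adjusted p = 0.00147).

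**Figure D3:**
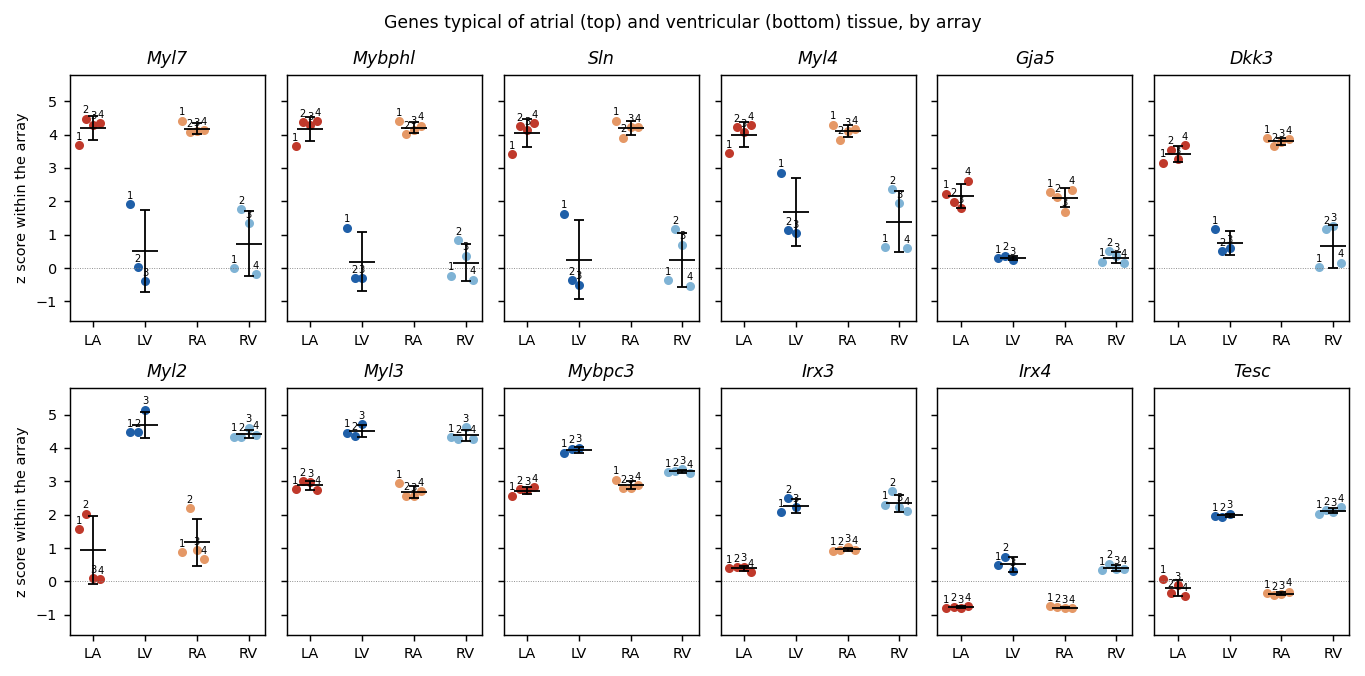
Values of 12 chamber genes on single arrays (z score within the array) in LA, LV, RA and RV, with LV replicate 4 left out. Points carry their replicate number, horizontal bars are means and error bars 1 SD. Myl7, Mybphl, Sln and Myl4 are raised on LV replicate 1 and on RV replicates 2 and 3, and Myl2 on LA replicates 1 and 2 and RA replicate 2.

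The bases just before the start sites of Myl7, Mybphl and Myl3 are shown because these genes carry the chamber difference in both directions and have a single start site in the RefSeq table (GRCm38.p6). Each run gives the 200 bases before the start site, 5′ to 3′ on the strand of the gene. The Myl7 run lies at chr11:5898783-5898982 on the minus strand, the Mybphl run at chr3:108364711-108364910 on the plus strand, and the Myl3 run at chr9:110763478-110763677 on the plus strand. Capitals mark a CArG box, the site of serum response factor, the letters GATAA of GATA factors, and the letters CATTCC of TEAD factors, each searched on both strands. None of the marked sites overlaps another.
Myl7: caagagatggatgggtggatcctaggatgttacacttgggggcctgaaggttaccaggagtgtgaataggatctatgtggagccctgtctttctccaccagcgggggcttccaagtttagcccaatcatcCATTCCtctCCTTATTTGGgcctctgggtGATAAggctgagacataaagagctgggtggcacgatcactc
Mybphl: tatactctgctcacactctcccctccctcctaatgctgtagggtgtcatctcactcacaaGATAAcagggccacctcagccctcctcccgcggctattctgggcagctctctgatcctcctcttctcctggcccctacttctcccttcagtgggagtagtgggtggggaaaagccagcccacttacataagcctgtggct
Myl3: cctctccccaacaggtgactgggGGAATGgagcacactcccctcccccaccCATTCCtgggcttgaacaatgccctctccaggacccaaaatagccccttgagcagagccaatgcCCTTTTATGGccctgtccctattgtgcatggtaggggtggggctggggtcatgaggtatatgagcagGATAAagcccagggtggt
The atrial Myl7 and the ventricular Myl3 both held 1 CArG box, starting 61 and 85 bases before the start site. Both also held GATAA, at 41 and 18 bases, and CATTCC, 1 copy in Myl7 and 2 in Myl3. Mybphl held GATAA at 140 bases and neither of the other motifs. Among the 4609 tested genes with a single start site in the table, 1.35% held a CArG box in the 250 bases upstream, against 18 of 978 genes higher in LA (1.84%) and 10 of 758 lower genes (1.32%). GATAA was present in 14.5% of all, 15.6% of the higher and 13.5% of the lower genes, and CATTCC in 10.7%, 12.4% and 11.1%. AGGTCA, a site of nuclear receptors, was present in 9.5% of all, 7.26% of the higher and 12% of the lower genes.

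Other sarcomere genes were more often lower than higher in LA. Of 10 tested members of a list of muscle proteins typical of ventricular muscle, 6 were lower in LA and 1 was higher. Over all genes tested, 16.7% were lower and 22.4% higher. The median difference of the list was -0.49 against 0.041 over all genes. Mybpc3, cardiac myosin binding protein C, read 2.57, 2.76, 2.73 and 2.83 on the LA arrays and 3.85, 3.98 and 4.00 on the LV arrays and differed by -1.22 ± 0.08 (SE, adjusted p = 9.64e-06). Myh7, the beta myosin heavy chain, was near the average probe in both chambers and differed by -0.35 (adjusted p = 0.0293), with overlapping arrays. Actn2, alpha actinin of the Z disc, differed by -0.63 (adjusted p = 0.0033), and Tnnc1, cardiac troponin C, by -0.64 (adjusted p = 0.0113). After quantile normalization the Actn2 difference was -0.23 (adjusted p = 0.0113) and the Tnnc1 difference -0.08 (adjusted p = 0.344), and the list held 5 lower and 2 higher genes with a median of -0.16. Mylk3, the cardiac myosin light chain kinase, was the higher member, at 0.43 (adjusted p = 0.00245).

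A list drawn up for atrial muscle held 4 higher and 2 lower genes of 7 tested, with a median difference of 2.32. Over all genes tested, 22.4% were higher and 16.7% lower. The list also held muscle genes not confined to the atrium, and the study had named Mybphl as LA-specific. The higher genes were those above. The lower genes were Fhl2, a LIM domain protein of muscle, at -0.94 ± 0.08 (SE, adjusted p = 4.37e-05), and Ldb3, a Z disc protein, at -0.32 (adjusted p = 0.0157). Myh6, the alpha myosin heavy chain that serves both chambers in the adult mouse, read 3.60, 4.43, 4.24 and 4.33 on the LA arrays and 4.55, 4.54 and 4.83 on the LV arrays. Its difference of -0.49 (adjusted p = 0.0633) did not pass the test, and after quantile normalization it was 0.01 (adjusted p = 0.904).

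In a list of secreted factors and their receptors, 7 of 14 tested members were higher in LA and 2 lower, with a median of 0.36. Over all genes tested, 22.4% were higher and 16.7% lower. The list was chosen with earlier results of these data known, and the study had named Igfbpl1 as LA-specific. Its counts therefore do not describe secreted factors as a class. After quantile normalization 8 were higher and 2 lower, with a median of 0.59. Of the 14, 3 lay above 0 in LA only, and with no filter 7 of 20 measured members were higher and 2 lower. Dkk3, a secreted protein of the Dickkopf family, read 3.16, 3.55, 3.26 and 3.68 on the LA arrays and 1.17, 0.50 and 0.59 on the LV arrays, a difference of 2.66 ± 0.18 (SE, adjusted p = 1.29e-05). Uts2b, a urotensin peptide, read 1.67, 1.46, 1.66 and 1.03 on the LA arrays and -0.68, -0.80 and -0.71 on the LV arrays and differed by 2.19 ± 0.14 (SE, adjusted p = 1.21e-05). Angpt1, the ligand of the endothelial receptor Tek, read 2.10, 2.0, 1.94 and 2.17 on the LA arrays and 0.32, 0.30 and 0.54 on the LV arrays and differed by 1.67 (adjusted p = 3.07e-06). Npr3, the clearance receptor of natriuretic peptides, read 1.88, 1.90, 1.82 and 1.89 on the LA arrays and 0.31, 0.09 and 0.26 on the LV arrays and differed by 1.65 (adjusted p = 1.15e-06). In these 4 genes every LA array lay above every LV array by a wide margin. For Dkk3 and Uts2b, non-overlap was also a condition of the rule that picked the largest differences. Hamp, the iron hormone hepcidin, was higher by 1.21 (adjusted p = 0.000621), Igfbpl1 by 0.77 (adjusted p = 0.000184) and Npr2, the receptor of C-type natriuretic peptide, by 0.27 (adjusted p = 0.0299).

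The natriuretic peptides themselves were not called between the chambers on the deposited scale. Nppa, atrial natriuretic peptide, read 3.53, 4.26, 4.22 and 4.38 on the LA arrays and 3.88, 3.55 and 3.49 on the LV arrays. These values overlapped through LA replicate 1 alone, an array whose highest value on any probe was 3.74. The other LA arrays lay above every LV array. The difference of 0.46 (adjusted p = 0.0916) did not pass the test. After quantile normalization it was 0.81 (adjusted p = 0.000475). Nppb, B-type natriuretic peptide, read 3.20, 3.95, 3.17 and 3.34 on the LA arrays and 3.25, 3.61 and 3.39 on the LV arrays, a difference of -0.002 (adjusted p = 0.994). Corin, the protease that activates the Nppa precursor, differed by 0.21 (adjusted p = 0.193) with all 7 arrays, by 0.33 (adjusted p = 0.0343) without LV replicate 3 and by 0.42 (adjusted p = 0.00628) after quantile normalization. Bdnf, a neurotrophin, was the largest fall of the list: it read -0.50, -0.48, -0.50 and -0.49 on the LA arrays and 0.26, 0.73 and 0.57 on the LV arrays and differed by -1.01 (adjusted p = 0.000126). Furin, a proprotein convertase, was lower at -0.30 (adjusted p = 0.00988).

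Transcription factors of atrial identity were higher in LA in 9 of 11 tested members and lower in none. Over all genes tested, 22.4% were higher and 16.7% lower. The study had already named Foxc1, Foxc2, Sox5, Tbx5, Etv1, Nr2f2 and Zbtb7c as LA-specific in mouse and rat. Its mouse arrays were those of this series, so the direction of these genes was known beforehand. The count is therefore no independent support for the list. Of the 11, 5 lay above 0 in LA only. With no filter 8 of 12 measured members were higher and 0 lower, and after quantile normalization 8 of the 11 were higher. Nr2f1 and Nr2f2 encode the orphan nuclear receptors COUP-TFI and COUP-TFII, of which the latter maintains atrial identity in the mouse. Nr2f1 read 1.73, 1.84, 1.52 and 1.55 on the LA arrays and 0.32, 0.42 and 0.36 on the LV arrays and differed by 1.29 ± 0.09 (SE, adjusted p = 1.35e-05). Nr2f2 read 0.55, 0.31, 0.38 and 0.59 on the LA arrays and -0.36, -0.32 and -0.35 on the LV arrays and differed by 0.80 ± 0.08 (SE, adjusted p = 0.000123). Both receptors were clearly above the average probe on every LA array, and neither overlapped between the chambers. Sox5 was higher by 0.99 (adjusted p = 6.55e-05) and Tbx5, the T-box factor mutated in Holt-Oram syndrome, by 0.91 (adjusted p = 0.000107). Etv1, an ETS factor of fast conduction in the atria, was higher by 0.80 (adjusted p = 0.00128) and Foxc1 by 0.66 (adjusted p = 0.00151). Smaller differences were called for Foxc2 at 0.41, Gata6 at 0.34 and Zbtb7c at 0.27, of which Zbtb7c was no longer called after quantile normalization, at 0.23 (adjusted p = 0.0639). Meis1 and Meis2 differed by -0.13 (adjusted p = 0.273) and 0.11 (adjusted p = 0.198).

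On the ventricular side the Iroquois factors stood out. Irx3 read 0.40, 0.43, 0.44 and 0.28 on the LA arrays and 2.08, 2.50 and 2.22 on the LV arrays and differed by -1.88 ± 0.10 (SE, adjusted p = 4.02e-06). Irx4 read -0.80, -0.76, -0.80 and -0.74 on the LA arrays and 0.48, 0.74 and 0.31 on the LV arrays, a difference of -1.28 ± 0.10 (SE, adjusted p = 2.34e-05), and its LA values were within 0.06 of each other. Irx5 read 0.13, -0.16, -0.04 and -0.13 on the LA arrays and 0.76, 1.12 and 1.07 on the LV arrays and differed by -1.03 (adjusted p = 0.000137), and Irx2 read -0.78, -0.73, -0.69 and -0.76 on the LA arrays and -0.03, 0.29 and 0 on the LV arrays and differed by -0.83 (adjusted p = 0.000139). Irx4 and Irx2 thus lay below the average probe on every LA array. Of 9 tested ventricular factors, these 4 were lower and Mef2c, a factor of muscle differentiation, was higher at 0.33 (adjusted p = 0.0129). Over all genes tested, 16.7% were lower and 22.4% higher. The study had already named Irx2, Irx4 and Irx5 as ventricle-specific with mouse arrays of this series, so their direction was known beforehand. Of the 9, 3 lay above 0 in LV only, and with no filter 5 of 14 measured members were lower and 1 higher. After quantile normalization 5 of the 9 were lower and 1 higher. Hand2 read -0.14, -0.14, -0.24 and -0.08 on the LA arrays and 0.46, -0.05 and 0.09 on the LV arrays, a difference of -0.32 (adjusted p = 0.0526). The LA and LV arrays did not overlap in Hand2. Hey2, a repressor of atrial genes in the ventricle, was below 0 on all 7 arrays and was not tested.

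Of 16 tested potassium channel genes, 4 were higher in LA and 4 lower, shares near those over all genes tested (22.4% and 16.7%), and 3 lay above 0 in LV only. With no filter 4 of 23 measured members were higher and 3 lower. After quantile normalization 4 were higher and 6 lower, and the median went from 0.06 to -0.03. Kcnj3, a subunit of the channel opened by acetylcholine, read 1.14, 1.15, 0.84 and 1.25 on the LA arrays and 0.12, 0.21 and 0.09 on the LV arrays and differed by 0.95 ± 0.10 (SE, adjusted p = 0.000137). Kcnh2, the channel of the rapid delayed rectifier, was higher by 0.71 (adjusted p = 0.00065). The regulatory subunits of the ATP-sensitive channel parted. Abcc8 (SUR1) read 0.91, 1.02, 0.96 and 1.01 on the LA arrays and 0.40, 0.41 and 0.22 on the LV arrays, a difference of 0.63 ± 0.07 (SE, adjusted p = 0.000194). Abcc9 (SUR2) read 0.41, 0.24, 0.10 and 0.34 on the LA arrays and 1.59, 1.72 and 1.25 on the LV arrays, a difference of -1.25 ± 0.12 (SE, adjusted p = 9.31e-05). Neither of the subunits overlapped between the chambers. Kcnip2, the subunit that sets the transient outward current, read -0.21, -0.45, -0.36 and -0.14 on the LA arrays and 0.87, 1.04 and 1.07 on the LV arrays and differed by -1.28 ± 0.09 (SE, adjusted p = 1.63e-05). Kcne1, a partner of the slow delayed rectifier, read -0.67, -0.69, -0.76 and -0.66 on the LA arrays and 0.35, 0.29 and 0.57 on the LV arrays and differed by -1.10 (adjusted p = 1.63e-05). Both lay below the average probe on every LA array and above it on every LV array. Smaller calls were Kcnk6 at 0.49 (adjusted p = 0.0203) and Kcna5 at -0.32 (adjusted p = 0.0398).

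Among 9 tested sodium, calcium and pacemaker channel genes, 3 were higher and 3 lower, beside 22.4% and 16.7% of all genes tested. After quantile normalization 3 were higher and 2 lower. The 9 included 3 that lay above 0 in LA only, and with no filter 4 of 16 measured members were higher and 3 lower. Fgf12, an intracellular regulator of sodium channels, read 2.19, 2.22, 1.97 and 2.05 on the LA arrays and -0.61, -0.69 and -0.70 on the LV arrays, a difference of 2.77 ± 0.08 (SE, adjusted p = 4.08e-07). Cacna1h, a T-type calcium channel, read 2.07, 2.18, 1.98 and 2.26 on the LA arrays and 0.42, 0.58 and 0.57 on the LV arrays and differed by 1.60 ± 0.08 (SE, adjusted p = 3.36e-06). The chambers did not overlap in either gene, which for Fgf12 was also a condition of the rule that picked the largest differences. Scn10a, a sodium channel better known from sensory neurons, was higher by 0.93 (adjusted p = 0.000246). Cacna2d1, an auxiliary calcium channel subunit, was lower at -0.59 (adjusted p = 0.000329), Hcn2 at -0.37 (adjusted p = 0.0231) and Fgf13, a relative of Fgf12, at -0.29 (adjusted p = 0.0282). The Fgf13 difference was -0.24 (adjusted p = 0.0566) after quantile normalization.

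Cell contacts divided by connexin. Gja5 (connexin 40), the gap junction protein of atrial muscle and of the conduction system, read 2.23, 1.99, 1.80 and 2.62 on the LA arrays and 0.30, 0.37 and 0.24 on the LV arrays and differed by 1.86 ± 0.17 (SE, adjusted p = 6.92e-05). It did not overlap between the chambers, and LA replicate 4 was the highest array. Gja1 (connexin 43), the main ventricular connexin, read 3.15, 3.40, 3.13 and 3.48 on the LA arrays and 3.48, 3.95 and 3.99 on the LV arrays. Its difference of -0.52 (adjusted p = 0.0181) was -0.20 (adjusted p = 0.206) after quantile normalization. Among the 13 tested contact genes, 2 were higher and 4 lower, beside 22.4% and 16.7% of all genes tested. Dsg2 was the other higher member at 0.36 (adjusted p = 0.0062). The lower members besides Gja1 were Cdh2 at -0.70 (adjusted p = 0.00231), Pkp2 at -0.48 (adjusted p = 0.00293) and Des at -0.47 (adjusted p = 0.0068), which encode N-cadherin, plakophilin 2 and desmin.

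Calcium handling genes were lower in 9 of 16 tested members and higher in 3, with a median of -0.30. Over all genes tested, 16.7% were lower and 22.4% higher. Pln, phospholamban, the main brake of the calcium pump, read 2.54, 2.75, 2.53 and 2.79 on the LA arrays and 2.94, 3.16 and 3.63 on the LV arrays and differed by -0.59 (adjusted p = 0.0141). Hrc, a calcium-binding protein of the sarcoplasmic reticulum, differed by -0.69 (adjusted p = 0.00561), and S100a1, which raises pump activity, by -0.62 (adjusted p = 0.00127). The higher members were Sln, Calm2 (a calmodulin gene) at 0.42 (adjusted p = 0.00198) and Itpr2, the inositol trisphosphate receptor of atrial muscle, at 0.41 (adjusted p = 0.00322). After quantile normalization the counts were again 9 lower and 3 higher, with 8 lower genes called in both. Of the 16, 2 lay above 0 in LV only, and with no filter 10 of 18 measured members were lower and 3 higher.

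Receptors of autonomic input were mixed as well, with 5 of 11 tested members higher and 4 lower, beside 22.4% and 16.7% of all genes tested. Of the 11, 3 lay above 0 in LA only, and with no filter 5 of 15 measured members were higher and 4 lower. Chrm2, the muscarinic receptor of vagal input, read 2.12, 2.35, 2.14 and 2.16 on the LA arrays and 1.36, 1.5 and 1.63 on the LV arrays and differed by 0.70 ± 0.09 (SE, adjusted p = 0.000371). Gnao1, a G protein subunit coupled to such receptors, was higher by 0.89 (adjusted p = 4.21e-05). Npy1r, the neuropeptide Y receptor Y1, read 1.14, 1.32, 0.85 and 0.93 on the LA arrays and -0.25, -0.28 and -0.48 on the LV arrays and differed by 1.40 ± 0.12 (SE, adjusted p = 4.68e-05). Drd2, a dopamine receptor, was higher by 1.10 (adjusted p = 0.000132). Agtr1a, the angiotensin II receptor, was lower at -0.80 (adjusted p = 0.000206), and Rgs4, which shortens G protein signals, at -0.63 (adjusted p = 0.000414).

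Genes of energy metabolism were mostly lower in LA on the deposited scale, and how much of this remained depended on the scaling. Fatty acid uptake and oxidation held 21 lower and 0 higher genes of 26 tested, with a median of -0.65. Over all genes tested, 16.7% were lower and 22.4% higher. Acadm, medium-chain acyl-CoA dehydrogenase, read 3.44, 3.72, 3.64 and 3.77 on the LA arrays and 4.34, 4.43 and 4.80 on the LV arrays and differed by -0.88 (adjusted p = 0.000668). Acadvl, the very long-chain enzyme, read 2.86, 2.82, 3.03 and 2.88 on the LA arrays and 3.71, 3.76 and 3.86 on the LV arrays and differed by -0.88 (adjusted p = 4.17e-05). Eci1, enoyl-CoA isomerase, differed by -0.86 (adjusted p = 7.97e-05), and Lpl, the lipoprotein lipase that frees fatty acids at the vessel wall, by -0.81 (adjusted p = 0.00257). After quantile normalization 20 of the 26 were lower and 0 higher, all 20 called in both, with a median of -0.42.

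The respiratory chain behaved otherwise. Of 59 tested subunits of complexes I to V, 39 were lower and 0 higher, with a median of -0.46, and after quantile normalization 8 were lower and 0 higher with a median of -0.06. Their mean level was 3.37, within the level class whose overall median was -0.336 and of which 53.2% were called lower. Uqcrc1, a core protein of complex III, read 3.22, 3.41, 3.5 and 3.57 on the LA arrays and 4.2, 4.12 and 4.36 on the LV arrays and differed by -0.80 (adjusted p = 0.000313), and by -0.43 (adjusted p = 0.000581) after quantile normalization. Ndufs4 of complex I differed by -0.72 (adjusted p = 0.000925) and by -0.40 (adjusted p = 0.00104) under these scalings. In the tricarboxylic acid cycle 12 of 18 tested members were lower and 1 higher, beside 16.7% and 22.4% of all genes tested. After quantile normalization 8 were lower and 1 higher, all called in both. Ogdh, an oxoglutarate dehydrogenase subunit, differed by -0.97 (adjusted p = 7.42e-05), Dlst of the same complex by -0.67 (adjusted p = 0.000204), and Suclg2, a succinyl-CoA ligase subunit, by -0.65 (adjusted p = 0.000261). The higher member was Idh3b, a subunit of isocitrate dehydrogenase, at 0.42 (adjusted p = 0.003).

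Of 20 tested genes of glucose use, 15 were lower and 0 higher, beside 16.7% and 22.4% of all genes tested. After quantile normalization 13 were lower and 0 higher, 12 of them called in both. Hk2, a muscle hexokinase, read 2.62, 2.88, 2.63 and 2.91 on the LA arrays and 3.52, 3.5 and 3.72 on the LV arrays and differed by -0.82 (adjusted p = 0.000298), Pygb, a glycogen phosphorylase, by -0.81 (adjusted p = 0.000351), and Eno3, muscle enolase, by -0.72 (adjusted p = 0.000319). Creatine and oxygen supply held 5 lower and 1 higher of 9, the same counts after quantile normalization and all 6 called in both. Ckm, muscle creatine kinase, differed by -0.95 ± 0.09 (SE, adjusted p = 6.52e-05), and Slc6a8, the creatine transporter, by -0.73 (adjusted p = 6.52e-05). Ckmt1, a mitochondrial creatine kinase typical of non-muscle cells, was higher by 0.91 (adjusted p = 0.00276).

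Proteins of the Z disc that sense stretch were lower in 7 of 15 tested members and higher in 1. Over all genes tested, 16.7% were lower and 22.4% higher. Ankrd23, a muscle ankyrin repeat protein bound to titin, read 0.10, 0.16, 0.02 and -0.02 on the LA arrays and 2.25, 2.62 and 2.45 on the LV arrays, a difference of -2.38 ± 0.09 (SE, adjusted p = 1.03e-06), the second largest called fall after Myl2. Myot, myotilin, read -0.67, -0.66, -0.58 and -0.63 on the LA arrays and 0.97, 0.57 and 0.31 on the LV arrays and differed by -1.25 (adjusted p = 0.000167), and Ttn, titin, differed by -0.72 (adjusted p = 0.000402). Pdlim3, an actinin-binding protein, was the higher member at 0.93 (adjusted p = 0.00478). After quantile normalization 5 were lower and 2 higher. Of the 15, 2 lay above 0 in LV only, and with no filter 6 of 19 measured members were lower and 1 higher.

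The remaining large differences fell on genes outside these lists. Higher in LA was Ppp1r1b (DARPP-32), an inhibitor of protein phosphatase 1, which read 2.21, 2.40, 2.32 and 2.44 on the LA arrays and -0.32, -0.65 and -0.54 on the LV arrays and differed by 2.85 ± 0.09 (SE, adjusted p = 8.67e-07). Stard10, a lipid transfer protein, read 3.13, 3.42, 3.31 and 3.60 on the LA arrays and 1.12, 0.90 and 0.87 on the LV arrays and differed by 2.40 (adjusted p = 2.25e-06). Lgals3, the lectin galectin-3, read 2.80, 2.72, 2.65 and 2.84 on the LA arrays and 0.49, 0.26 and 0.54 on the LV arrays and differed by 2.32 (adjusted p = 1.03e-06). Sytl2, a vesicle docking protein, was higher by 2.15 (adjusted p = 1.15e-06), Ahsg (fetuin-A) by 2.14 (adjusted p = 1.19e-05) and Gm14685 by 2.25 (adjusted p = 2.39e-06). Gpx3, a secreted glutathione peroxidase, read 3.56, 4.00, 4.08 and 4.23 on the LA arrays and 2.53, 2.19 and -1.45 on the LV arrays. Its difference of 2.88 (adjusted p = 0.0217) rested in part on the low value of LV replicate 3 and was 1.61 (adjusted p = 4.76e-05) without that array.

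On the ventricular side, Tesc, the calcium-binding protein tescalcin, read 0.08, -0.34, -0.11 and -0.44 on the LA arrays and 1.96, 1.94 and 2.03 on the LV arrays and differed by -2.18 ± 0.12 (SE, adjusted p = 4.43e-06). Ptgds, prostaglandin D synthase, read -0.12, -0.19, -0.12 and -0.36 on the LA arrays and 2.24, 1.71 and 1.72 on the LV arrays and differed by -2.09 ± 0.13 (SE, adjusted p = 9.44e-06). Lbh, a transcription cofactor of limb bud and heart, differed by -1.97 (adjusted p = 6.71e-06), Gpr22, an orphan receptor, by -1.94 (adjusted p = 9.45e-06), and Smyd2, a lysine methyltransferase, by -1.78 (adjusted p = 1.03e-06). Scube2, a secreted protein, was lower at -1.68 (adjusted p = 5.34e-06) and Ivns1abp, a kelch protein, at -1.65 (adjusted p = 1.15e-06). Rpl3l, the ribosomal protein that replaces Rpl3 in striated muscle, was lower at -1.55 (adjusted p = 1.29e-05). Mapt (tau) was lower at -1.55 (adjusted p = 2.34e-06), Ttll1, a tubulin-modifying enzyme, at -1.43 (adjusted p = 2.78e-06), and Ky, a muscle peptidase, at -1.35 (adjusted p = 0.000139). The LA and LV arrays did not overlap in any gene of this paragraph, which was a condition of the rule that named these genes.

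**Figure D4:**
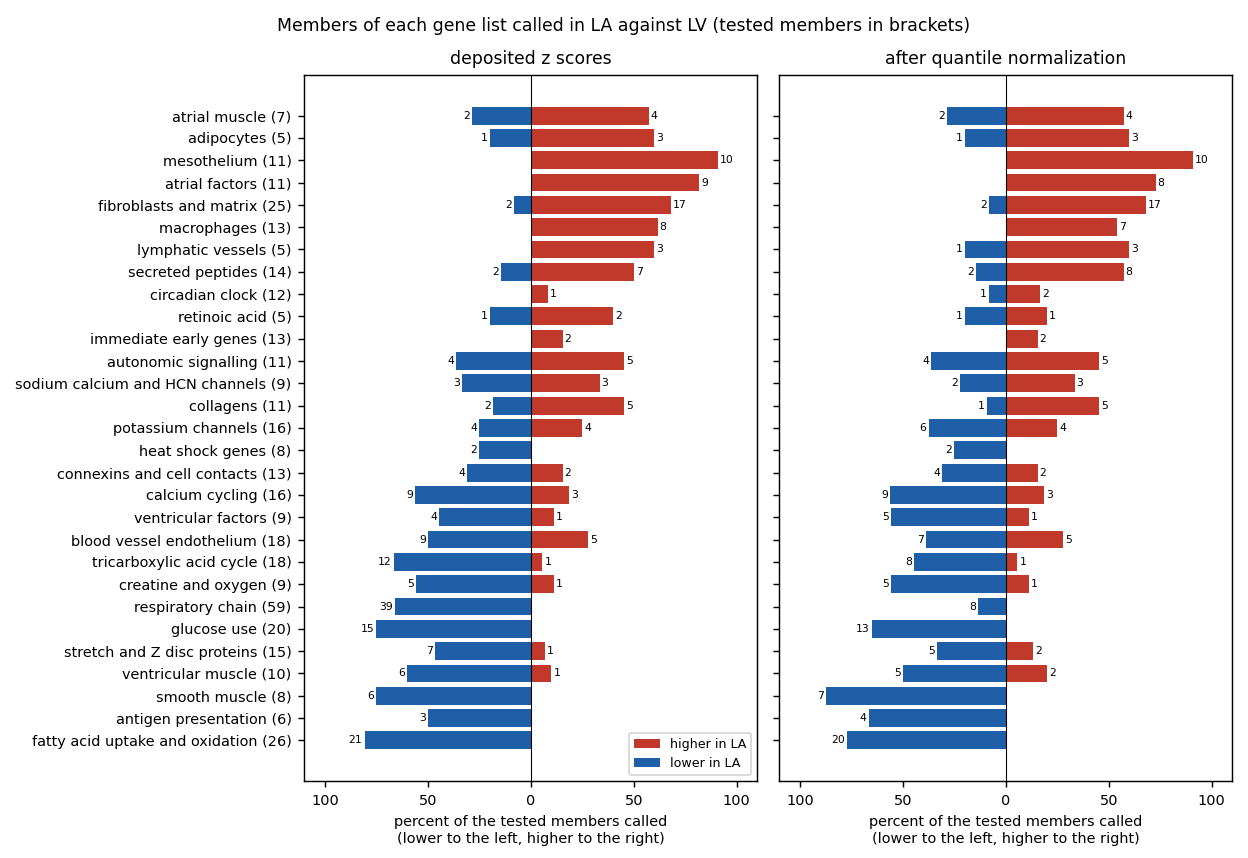
Percent of the tested members of 29 gene lists with at least 5 tested members that were called lower (blue, to the left) or higher (red, to the right) in LA than in LV, with deposited z scores (left panel) and after quantile normalization (right panel). Numbers at the bars count genes. Over all genes tested, 22.4% were called higher and 16.7% lower on the deposited scale. The respiratory chain falls from 39 to 8 lower genes, while fatty acid genes go from 21 to 20.

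Markers of other cells differed between the chambers too, and their part in the results above was not tested. Of 11 tested mesothelial genes, 9 lay above 0 in LA only and so entered the test through the chamber in which they were high. With no filter, 9 of 13 measured members were higher in LA and 0 lower, beside 10.6% and 8.65% of all genes. The mean level of the tested members ran from 0.36 to 0.88 on the LA arrays and -0.41 to -0.38 on the LV arrays. Upk3b, a uroplakin of mesothelial cells, read 1.79, 1.80, 2.22 and 1.86 on the LA arrays and 0.36, 0.33 and 0.14 on the LV arrays and differed by 1.64 ± 0.11 (SE, adjusted p = 1.49e-05). Upk1b was higher by 1.65 (adjusted p = 6.52e-05), Gpm6a by 1.49 (adjusted p = 6.81e-06) and Msln (mesothelin) by 1.18 (adjusted p = 0.000122). LA replicate 3 was the highest array for Upk1b, Upk3b and Msln. Mesothelial genes lay below 0 on average on every LV array.

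Fibroblast and matrix genes were higher in 17 of 25 tested members and lower in 2, beside 22.4% and 16.7% of all genes tested. Their median was 0.54, and the counts were the same after quantile normalization. Their mean level ran from 1.79 to 1.98 on the LA arrays and 1.06 to 1.47 on the LV arrays, where the lowest LV array was replicate 3. Mfap4, a microfibril protein, read 1.75, 1.85, 1.84 and 1.82 on the LA arrays and 0.67, 0.33 and 0.36 on the LV arrays and differed by 1.36 ± 0.09 (SE, adjusted p = 1.13e-05). Pi16, a marker of adventitial fibroblasts, read 2.47, 2.61, 2.66 and 2.57 on the LA arrays and 1.56, 1.11 and 1.57 on the LV arrays and differed by 1.16 (adjusted p = 0.000115). Comp was higher by 0.80 (adjusted p = 0.00151) and Timp1 by 0.86 (adjusted p = 0.0229). Dcn and Gsn, both low on LV replicate 3, differed by 1.70 (adjusted p = 0.207) and 1.46 (adjusted p = 0.116) with all 7 arrays and by 0.11 (adjusted p = 0.561) and 0.42 (adjusted p = 0.102) without that array.

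Macrophage genes were higher in 8 of 13 tested members and lower in none, with 7 higher after quantile normalization. Over all genes tested, 22.4% were higher and 16.7% lower. The mean level of the macrophage genes ran from 0.99 to 1.46 on the LA arrays and 0.60 to 0.79 on the LV arrays. Cd163, a scavenger receptor of resident macrophages, read 1.40, 1.53, 2.03 and 1.42 on the LA arrays and 0.76, 0.37 and 0.76 on the LV arrays and differed by 0.96 (adjusted p = 0.00193). Folr2 was higher by 0.71 (adjusted p = 0.000289), Vsig4 by 0.90 (adjusted p = 0.00259) and the chemokine Ccl8 by 1.19 (adjusted p = 0.00601). MHC class II genes went the other way. H2-Ab1 read 0.52, 0.68, 0.77 and 0.96 on the LA arrays and 1.01, 1.70 and 1.93 on the LV arrays, a difference of -0.81 (adjusted p = 0.0115). H2-Eb1 differed by -0.77 (adjusted p = 0.00281) and Cd74, the invariant chain, by -0.60 (adjusted p = 0.0329). No tested member of that list of 6 was higher and 3 were lower, against 4 after quantile normalization, and LV replicate 1 was the lowest LV array for all 3 genes. Without LV replicate 3 the Cd74 difference was -0.41 (adjusted p = 0.0675). No B or T cell gene of a list of 7 measured members lay above 0 on any of the 7 arrays, and neither did any of 9 lung and airway genes.

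Smooth muscle genes were lower in LA in 6 of 8 tested members and higher in none, and in 7 after quantile normalization. Their mean levels ran from 1.11 to 1.20 on the LA arrays and 1.57 to 1.73 on the LV arrays. The list shared Des with the contact genes above, where it was called lower, and Rgs5 with the autonomic genes. Its counts and mean levels are therefore not of smooth muscle alone. Of the 8, 2 lay above 0 in LV only, Myh11 among them, and 4 of the 6 above 0 in both chambers were lower. With no filter 8 of 12 measured members were lower and 0 higher, beside 8.65% and 10.6% of all genes. Myh11, smooth muscle myosin, read -0.08, -0.07, -0.01 and -0.10 on the LA arrays and 0.60, 0.96 and 0.56 on the LV arrays and differed by -0.77 (adjusted p = 0.000406), and Acta2, smooth muscle actin, differed by -0.64 (adjusted p = 0.0038). Endothelial genes went both ways, with 5 of 18 higher and 9 lower (5 and 7 after quantile normalization). The share of higher genes was near that over all genes tested (22.4%), and the share of lower genes was above it (16.7%). Their mean levels ran from 1.58 to 1.68 on the LA arrays and 1.67 to 1.86 on the LV arrays. Vwf, von Willebrand factor, read 1.93, 1.99, 2.05 and 2.05 on the LA arrays and 1.16, 1.02 and 1.28 on the LV arrays and differed by 0.85 ± 0.07 (SE, adjusted p = 6.34e-05). Cdh5, VE-cadherin of endothelial junctions, read 0.46, 0.33, 0.32 and 0.38 on the LA arrays and 1.04, 0.98 and 0.93 on the LV arrays and differed by -0.61 (adjusted p = 0.000145), and Robo4, a guidance receptor of endothelium, differed by -0.80 (adjusted p = 6.29e-05). Lymphatic genes were higher in 3 of 5 and lower in none, and 1 was lower after quantile normalization. Lyve1, also carried by resident macrophages, was higher by 1.19 (adjusted p = 0.00284), Pdpn (podoplanin), which mesothelium shares, by 0.97 (adjusted p = 0.000433), and Prox1 by 0.46 (adjusted p = 0.00237).

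Fat cell genes were higher in 3 of 5 tested members, beside 22.4% of all genes tested, and 2 of the 5 lay above 0 in LA only. With no filter 3 of 13 measured members were higher and 2 lower, beside 10.6% and 8.65% of all genes. The higher members were Car3 at 1.25 (adjusted p = 0.000876), Scd1 at 1.04 (adjusted p = 5.07e-05) and the adipocyte hormone Adipoq at 0.83 (adjusted p = 0.000777). Adipoq read -0.12, 0.39, 0.32 and 0.09 on the LA arrays and -0.59, -0.70 and -0.69 on the LV arrays. Cidea, a lipid droplet protein, was lower at -1.06 (adjusted p = 0.000218). Mlana, known from melanocytes as the antigen melan-A, read 2.01, 2.28, 1.94 and 2.35 on the LA arrays and -0.71, -0.59 and -0.50 on the LV arrays, a difference of 2.75 ± 0.11 (SE, adjusted p = 1.04e-06). The pigment genes Dct, Tyrp1, Tyr, Pmel and Slc45a2 were below 0 on all 7 arrays. Gpnmb, shared by melanocytes and macrophages, was higher by 1.48 (adjusted p = 0.00826) with LV replicate 3 at -1.50 and by 0.96 (adjusted p = 3.85e-05) without it. Genes of fast skeletal muscle were likewise present in LA. Atp2a1, the calcium pump of fast muscle, read 1.69, 1.59, 1.49 and 1.75 on the LA arrays and -0.22, -0.27 and -0.28 on the LV arrays and differed by 1.89 ± 0.07 (SE, adjusted p = 1.03e-06). Tnni2, fast troponin I, differed by 1.63 ± 0.09 (SE, adjusted p = 4.97e-06) and Myl1, an alkali light chain, by 1.21 (adjusted p = 0.000167). Mybpc2, the fast myosin binding protein C, was lower at -0.67 (adjusted p = 0.000148), and 9 further members, the fast heavy chains Myh1 and Myh4 included, were below 0 on all 7 arrays.

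Immediate early genes, which rise within minutes of handling, were raised on LA replicate 2. Their mean level over 13 tested genes was 1.92 there, against 0.86 to 1.05 on the other LA arrays and 0.71 to 1.04 on the LV arrays. The mean of 8 heat shock genes was 2.68 on the same array and 2.06 to 2.43 on the others. Of these 8, 2 were called lower in LA and 0 higher, beside 16.7% and 22.4% of all genes tested. Of the 13 immediate early genes, 2 were called, both higher in LA, a share below that over all genes tested. Ccn2, connective tissue growth factor, read 3.47, 4.53, 4.08 and 4.28 on the LA arrays and 3.08, 2.60 and 2.81 on the LV arrays and differed by 1.26 (adjusted p = 0.00251). Fos read 0.90, 1.81, 0.21 and 0.53 on the LA arrays and 0.07, -0.45 and -0.26 on the LV arrays and differed by 1.08 (adjusted p = 0.0288). Without LA replicate 2, Ccn2 differed by 1.11 (adjusted p = 0.00621) and Fos by 0.76 (adjusted p = 0.0189), both still called.

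The same chamber contrast in the right heart compared 8 other arrays, which carry the same title numbers as the left ones. These were fitted together with the LA and LV arrays, so the spread of the left arrays also entered the right p-values. Deviations from the group mean were compared across 7054 genes between arrays of the same title number. LA and RA arrays gave r of -0.268, 0.244, 0.413 and 0.425, and LV and RV arrays gave 0.339, 0.327 and 0.077. Arrays of different title numbers gave r from -0.411 to 0.283 for LA and RA and from -0.265 to 0.089 for LV and RV. Some, though not all, of the left and right arrays of 1 number thus deviated together beyond these ranges. The left and right contrasts are not independent if they share animals, and the right calls also depend on the left arrays through the shared fit. The left calls came from a fit of the LA and LV arrays alone. The left and right shares of called genes are therefore not directly comparable. RA and RV differed in 3481 of the 7183 genes (48.5%), with 1982 higher in RA (27.6%) and 1499 lower (20.9%). Of the 2810 genes called between LA and LV, 2087 were also called between RA and RV with the same sign, which is 74.3% of the left calls and 60% of the right calls, and 35 were called with opposite signs. Across the 7183 genes the 2 differences correlated with a Pearson r of 0.789 and a Spearman rho of 0.74. Genes are not independent replicates, and this describes the arrays only. Myl7 differed by 3.46 between RA and RV, Sln by 3.96, Mybphl by 4.05 and Myl2 by -3.25. Fatty acid genes were lower in RA in 25 of 26 and the respiratory chain in 44 of 59, with medians of -0.69 and -0.39. Of the 11 mesothelial genes tested on the left, 8 were higher in RA.

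The difference of the differences, LA minus LV against RA minus RV, was called in 433 genes (6.03%), 248 with a higher left difference (3.45%) and 185 with a lower one (2.58%). None of the 129 genes with a low value on LV replicate 3 was among them. Without that array 423 genes were called (5.92%), 332 of them shared. After quantile normalization 423 of the 433 were called again with the same sign. With the title number as a block, an alternative added after the data were seen, 344 genes were called (4.79%), of which 270 belonged to the 433 and had kept their sign. Without RV replicate 2, the array with conflicting labels, 176 genes had a higher and 140 a lower left difference.

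**Figure D5:**
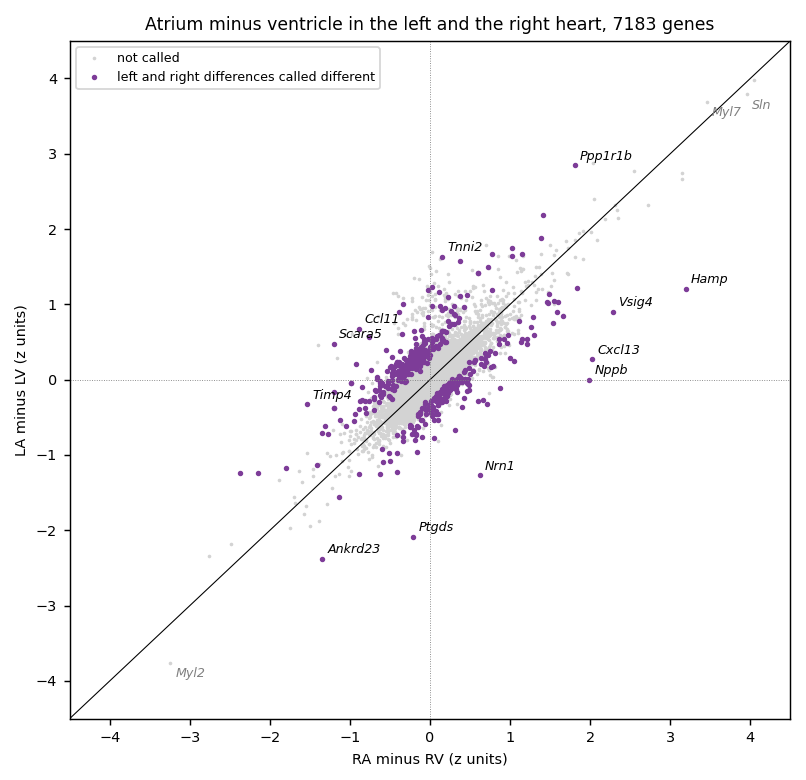
LA minus LV against RA minus RV in z units for 7183 genes, with the line of equality. The 433 purple genes differ between the left and the right heart (limma interaction, adjusted p below 0.05), and the atrial genes Myl7 and Sln and the ventricular gene Myl2 lie near the line. Nppb has a right difference of 1.98 and a left difference near 0.

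Nppb gave the largest such difference, and the ventricles set it apart. It read 3.35, 3.32, 3.91 and 3.43 on the RA arrays and 1.13, 1.34, 1.64 and 1.96 on the RV arrays, while LA and LV both read 3.17 to 3.95. RV was thus the low chamber, and the left minus right difference was -1.99 ± 0.28 (SE, adjusted p = 0.00098). Hamp read 2.78, 2.79, 2.57 and 2.88 on the RA arrays and -0.55, -0.25, -0.28 and -0.66 on the RV arrays, against 0.39 to 1.03 on the LA arrays. RA was the high chamber here, and the left minus right difference was -1.98 ± 0.20 (SE, adjusted p = 8.21e-05). Nrn1 (neuritin), a membrane-anchored growth factor, changed sign. It read 0.44, 0.41, 0.37 and 0.34 on the LA arrays and 1.58, 1.83 and 1.57 on the LV arrays, but 0.82, 1.0, 0.76 and 0.91 on the RA arrays and 0.20, 0.30, 0.25 and 0.26 on the RV arrays, giving -1.89 ± 0.09 (SE, adjusted p = 1.79e-08).

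Ptgds read 0.69, 0.86, 0.80 and 0.81 on the RA arrays and 0.95, 0.35, 1.42 and 1.28 on the RV arrays, all below the 3 LV arrays. Its left minus right difference was -1.88 (adjusted p = 0.000879). Ankrd23 was higher in LV than in RV, where it read 1.38, 1.58, 1.82 and 1.80, with a difference of -1.02 (adjusted p = 0.00183). Cxcl13, a B cell chemokine, read 1.0, 1.42, 2.26 and 1.42 on the RA arrays and was at or below 0.15 in LA, and its left minus right difference was -1.75 (adjusted p = 0.0051). Vsig4 read 2.39, 2.31, 2.68 and 2.36 on the RA arrays, above every LA array, and gave -1.38 (adjusted p = 0.00198). Igfbp3, which binds insulin-like growth factors, gave -1.03 (adjusted p = 0.0159).

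In the other direction Scara5, a ferritin receptor of fibroblasts, gave the largest value at 1.68 ± 0.15 (SE, adjusted p = 1.43e-05). It read 1.67, 1.72, 1.46 and 1.70 on the LA arrays and 1.08, 1.05 and 1.35 on the LV arrays, but 0.40, 0.19, 0.01 and 0.47 on the RA arrays and 1.49, 1.46, 1.33 and 1.60 on the RV arrays, so that every RA array lay below every array of the other 3 chambers, LV replicate 4 aside. Ccl11, the eosinophil chemokine eotaxin, read 1.07, 1.13, 1.0 and 1.07 on the LA arrays and 0.43, 0.30 and 0.45 on the LV arrays, but 0.16, -0.07, -0.31 and 0.22 on the RA arrays and 0.99, 0.98, 0.63 and 0.93 on the RV arrays, giving 1.56 ± 0.15 (SE, adjusted p = 4.65e-05). RA was the lowest chamber and LV the next for this gene. Timp4, an inhibitor of metalloproteinases, was also lowest in RA, at 0.12, -0.08, 0.02 and 0.08, and gave 1.22 (adjusted p = 0.000221). Tnni2 was raised in LA over RA, where it read 0.55, 0.31, 0.21 and 0.33, and gave 1.48 ± 0.12 (SE, adjusted p = 7.92e-06). Ddit4l, an inhibitor of mTOR signalling, gave 1.34 (adjusted p = 0.00291). Retnla and Clec10a, known from alternatively activated macrophages, gave 1.33 (adjusted p = 0.0033) and 1.28 (adjusted p = 0.000136), and Ccl8 gave 1.21 (adjusted p = 0.0312). Macrophage genes thus lay on both sides of this comparison.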

How the data were processed

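Total RNA of dissected mouse heart regions was hybridised to Illumina MouseRef-8 bead arrays, 20 in all, and 7 entered the main comparison. The values deposited by the authors were scores: z scores within each array, with a mean of 0 and an SD of 1 and rounded to 2 decimals. Per the study's methods, intensities had been log transformed and aligned between arrays, and the submitters' processing notes name BeadStudio and GenomeStudio 2011.1. The steps of the z scaling, any background correction and its effect on high values are not given in the sources used here. Signal depth and detection calls were not analysed here, so only the number of arrays and their spread set the precision.

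Of 25697 probes, 23978 carried 1 gene name and 1719 carried none, and 23962 were matched to RefSeq. Where a gene had several probes (4777 genes), the brightest on average across the 7 arrays stood for it. Differences were tested with limma 3.58.1 (R 4.3.3, lmFit and eBayes), two-sided, with Benjamini-Hochberg adjustment over 7183 genes and a threshold of 0.05. RA against RV and the difference of differences came from 1 fit over 15 arrays. The scripts were tested on simulated data.

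Members and gene lists were chosen with earlier results of these data known. Lists are described by counts and medians, with no set test. Named genes were the 15 largest non-overlapping calls in each direction, up to 4 calls per list and direction, members of 6 lists in full, and the 8 largest calls in each direction for the right heart comparison. The counts of a list depend on the filter where its genes are low, so counts with no filter are given for many of these lists, though not for all. Alternatives were the filter, the probe rule, quantile normalization, centring, array weights, a trended spread, the replicate block and leaving out arrays. LA and LV share replicate numbers in the labels only: same-numbered arrays deviated from their group means with r of -0.18, -0.121 and -0.025, so the numbers do not pair them. The numbers in the titles, shared by LA and RA and by LV and RV, were checked in the same way for the left against right comparison.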

Additional observations from a re-analysis of the deposited data

Results flagged for a closer look

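Single LA arrays were flagged as lying away from the other LA arrays in a few of the 164 genes named. In groups of 4, chance alone flags about 1 in 20, so chance could give a count of this size. LA replicate 1 was low for Mybphl (3.65, others 4.29 to 4.40) and Tnnc1 (3.72, others 4.31 to 4.33), both near the top of the range of that array. LA replicate 3 was high for the mesothelial Upk3b (2.22, others 1.79 to 1.86), for Pdpn (2.34, others 1.83 to 1.86) and for Cxcl13 (0.15, others -0.71 to -0.62), and low for Mapt (0.08, others 0.26 to 0.29). LA replicate 4 was low for Tnni2 (1.40, others 1.70 to 1.74). RV replicate 3 was low for Ccl11 (0.63, others 0.93 to 0.99).

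The difference between LA and LV was itself different from that between RA and RV for 40 of the genes named, by the limma interaction. The largest calls in each direction had been named by this same test, so their calls were fixed in advance. The count of 40 therefore cannot be weighed against the 6.03% called over all genes tested. The left difference was higher by more than 1 z unit for Scara5 at 1.68 (adjusted p = 1.43e-05), Ccl11 at 1.56 (adjusted p = 4.65e-05), Tnni2 at 1.48 (adjusted p = 7.92e-06), Ddit4l at 1.34 (adjusted p = 0.00291), Retnla at 1.33 (adjusted p = 0.0033), Clec10a at 1.28 (adjusted p = 0.000136), Timp4 at 1.22 (adjusted p = 0.000221), Ccl8 at 1.21 (adjusted p = 0.0312), Pi16 at 1.06 (adjusted p = 0.00599) and Ppp1r1b at 1.04 (adjusted p = 0.000126). It was higher by less for Angpt1 at 0.90 (adjusted p = 0.00831), Drd2 at 0.88 (adjusted p = 0.00413), Scn10a at 0.78 (adjusted p = 0.0165), Uts2b at 0.78 (adjusted p = 0.0323), Gpm6a at 0.77 (adjusted p = 0.0051), Atp2a1 at 0.50 (adjusted p = 0.00659), Meis2 at 0.48 (adjusted p = 0.00255) and Folr2 at 0.47 (adjusted p = 0.0312). The left difference was lower by more than 1 z unit for Nppb at -1.99 (adjusted p = 0.00098), Hamp at -1.98 (adjusted p = 8.21e-05), Nrn1 at -1.89 (adjusted p = 1.79e-08), Ptgds at -1.88 (adjusted p = 0.000879), Cxcl13 at -1.75 (adjusted p = 0.0051), Vsig4 at -1.38 (adjusted p = 0.00198), Igfbp3 at -1.03 (adjusted p = 0.0159) and Ankrd23 at -1.02 (adjusted p = 0.00183). It was lower by less for Mybpc2 at -0.98 (adjusted p = 0.000964), H2-Eb1 at -0.82 (adjusted p = 0.044), Mybpc3 at -0.81 (adjusted p = 0.000296), Gnao1 at -0.69 (adjusted p = 0.00024), Myot at -0.63 (adjusted p = 0.0397), Ttn at -0.54 (adjusted p = 0.0109), Kcne1 at -0.51 (adjusted p = 0.00483), Pygb at -0.48 (adjusted p = 0.0219), Ogdh at -0.46 (adjusted p = 0.0284), Cdh5 at -0.45 (adjusted p = 0.00372), Furin at -0.43 (adjusted p = 0.00644), Mapt at -0.41 (adjusted p = 0.0395), Igfbpl1 at -0.34 (adjusted p = 0.0343) and Slc6a8 at -0.33 (adjusted p = 0.0332). Without LV replicate 3, Igfbpl1 at -0.30 (adjusted p = 0.0711), H2-Eb1 at -0.70 (adjusted p = 0.0758) and Mapt at -0.41 (adjusted p = 0.0526) were no longer called. After quantile normalization all 40 were called. With the title number as a block, Igfbpl1 at -0.34 (adjusted p = 0.096), Ogdh at -0.45 (adjusted p = 0.102), Pygb at -0.47 (adjusted p = 0.0562), Slc6a8 at -0.36 (adjusted p = 0.056) and Ttn at -0.54 (adjusted p = 0.0647) were no longer called.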

How the results depend on the processing

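With LV replicate 4 kept, 47 genes were called higher in LA and 1 lower, 243 higher and 46 lower between RA and RV, and 4 higher and 2 lower in the left against right comparison. In that fit 18 named genes changed sign without being called: Actn2 to 0.22, Cacna2d1 to 0.025, Col4a2 to 0.013, Cxcl13 to -0.108, Fgf13 to 0.367, Furin to 0.373, Gja1 to 0.388, Hrc to 0.118, Ldb3 to 0.307, Meis1 to 0.418, Myh6 to 0.397, Nppb to 0.85, Pkp2 to 0.208, Pln to 0.158, S100a1 to 0.277, Timp4 to 0.137, Ttn to 0.058 and Zbtb7c to -0.193. Quantile normalization turned Myh6 to 0.01 and Nppb to 0.261, neither called, and raised the lower left differences from 185 to 312. The Nppb difference, near 0, also turned to 0.003 after centring on array medians, to 0.023 with the replicate block, and above 0 without LA replicate 1, 3 or 4 or LV replicate 2, with a range from -0.18 (without LA replicate 2) to 0.095 over the arrays left out.

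The replicate block, on numbers that do not pair the arrays, gave 1119 higher and 754 lower genes in LA. Without LV replicate 1 and LA replicates 1 and 2, added after seeing the data, 818 genes were higher and 634 lower in LA, and 84 and 79 in the left against right comparison. Fewer arrays entered that fit. Leaving out each array in turn gave 1265 to 1490 higher and 906 to 1095 lower genes for LA against LV, 1758 to 2080 and 1316 to 1574 for RA against RV, and 150 to 322 and 115 to 203 for left against right. The last was lowest without RV replicate 4 (150 and 115), and without RA replicate 1 it was 164 for higher left differences. The title numbers as a block, added after seeing the data, gave 203 and 141 for left against right. Other settings kept these counts within 1.5 times. Of the 164 genes named, 4 lost their call and 3 gained one without LV replicate 3, and 22 lost it without the 3 arrays above. The cause of these changes was not tested.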

Other observations

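Lists not described above were as follows. Over all genes tested, 22.4% were higher in LA and 16.7% lower, and 19.6% and 21% after quantile normalization. Collagen genes were higher in LA in 5 of 11 tested members and lower in 2, and in 1 after quantile normalization, with a median of 0.08. Col18a1, the precursor of endostatin, read 1.36, 1.31, 1.51 and 1.27 on the LA arrays and 0.70, 0.87 and 0.59 on the LV arrays and differed by 0.64 (adjusted p = 0.000605), and Col1a2 of fibrillar collagen differed by 0.61 (adjusted p = 0.00141). Col4a2, a chain of basement membranes, was lower at -0.55 (adjusted p = 0.00239). The Schwann cell list held 2 higher members of 3, among them Mbp, myelin basic protein, which read 0.73, 0.71, 0.79 and 0.80 on the LA arrays and -0.56, -0.48 and -0.21 on the LV arrays and differed by 1.17 (adjusted p = 2.32e-05). Of the 3 Schwann cell genes, 1 lay above 0 in LA only, and with no filter 2 of 6 measured members were higher and 0 lower. Neuron genes held 0 higher and 2 lower members of 3, and 3 lower after quantile normalization. Of the 3 neuron genes, 2 lay above 0 in LV only, and with no filter 1 of 16 measured members was higher and 4 were lower. Retinoic acid genes held 2 higher and 1 lower of 5, and 1 and 1 after quantile normalization. Of the 5 retinoic acid genes, 1 lay above 0 in LA only and 1 in LV only. With no filter 1 of 15 measured members was higher and 3 were lower. Clock genes held 1 higher and 0 lower of 12, shares below those over all genes tested, and 2 and 1 after quantile normalization. Of 2 tested red cell genes 1 was lower in LA: Hba-a1, a globin gene, read 3.42, 3.83, 3.72 and 3.81 on the LA arrays and 4.34, 4.27 and 4.53 on the LV arrays and differed by -0.69 (adjusted p = 0.00153).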
